A study of Mus musculus with 201 samples.

Results

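LG/J is a classical inbred mouse strain that descends from stock selected for large body size, and it is an ancestor of MRL, a strain studied for its healing of ear wounds. Classical inbred strains are the long-established laboratory lines, each nearly uniform in its genome, and they share a limited pool of founder ancestry. The hippocampus is the part of the forebrain that serves spatial and episodic memory, with pyramidal neurons in Ammon's horn, granule neurons in the dentate gyrus, and glia and vessels around them.

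The study measured hippocampal RNA of 100 mouse strains and F1 hybrids, counted together, on 201 Affymetrix M430 2.0 arrays. Each array held 1 sample of whole hippocampi, which was a pool of mice for all classical strains. LG/J was on 2 of these arrays and the other 12 classical inbred strains were on 25. The LG/J female pool held 2 mice of 63 days and was processed in batch 5, and the LG/J male pool held 3 mice of 63 days and was processed in batch 6. The other strains were C57BL/6J and BALB/cJ with 3 arrays each, BALB/cByJ with 1 array, and 129S1/SvImJ, A/J, AKR/J, C3H/HeJ, C57BL/6ByJ, DBA/2J, KK/HIJ, NOD/LtJ and NZO/HlLtJ with 2 arrays each. They gave 13 arrays labelled female and 12 labelled male, from pools of 2 to 4 mice with mean ages of 51 to 96 days. No group was treated or carried an engineered allele per the labels. Of the other classical arrays, 12 shared batch 5 with the LG/J female, 8 shared batch 6 with the LG/J male and 5 were in other batches. The 2 LG/J pools, being of different sex, held different animals. For pools of the same strain and sex the labels do not settle this, and p-values cover the variation from pool to pool. Both LG/J pools came from the animal source labelled UTM RW, which supplied 12 of the other classical arrays, from 6 strains. The other 6 strains came from JAX alone.

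Each array gave a PDNN score for 45037 probe sets, which are groups of short oligonucleotides for 1 transcript. The score rises with RNA level roughly as a logarithm does, to a base that no source gives, so results are differences in PDNN units and not fold changes. Arrays have no counting depth, and the precision is limited by the 2 LG/J arrays. The median score over all probe sets and arrays was 7.86, and the 2 LG/J arrays differed by a median of 0.069 units per probe set. Per the labels, 51.4% of probe sets were called present on the LG/J female array and 50.9% on the LG/J male array, against 47.0% to 54.3% on the other classical arrays.

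Hippocampal identity and sex labels were checked first. The mean score of 10 pyramidal neuron genes was 9.74 in the LG/J female and 9.64 in the LG/J male, against 9.40 to 9.87 in the other classical arrays. The mean of 10 dentate granule neuron genes was 8.73 in the LG/J female and 8.63 in the LG/J male, against 8.48 to 8.81. Xist, which is transcribed from the inactive X chromosome of females, scored 9.31 in the LG/J female and 7.47 in the LG/J male. The Y-linked gene Eif2s3y scored 7.25 in the LG/J female and 8.54 in the LG/J male. For Xist, 12 other arrays labelled female scored 8.47 to 10.17 and the 12 labelled male 7.18 to 7.39, so that the LG/J male lay slightly above the other males and below every female. KK/HIJ replicate 2, labelled female, had a Xist score of 8.79 and an Eif2s3y score of 8.39, both within the ranges of the sex that normally has each transcript. The other arrays showed no overlap between their labelled sexes for either gene. Counts are given without KK/HIJ replicate 2 as well. Signs of RNA quality in LG/J lay within those of the other arrays: the labelled ACTB 3′ to 5′ ratio was 1.68 in the LG/J female and 2.16 in the LG/J male, against 1.13 to 3.71.

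A probe set was placed outside the classical range where both LG/J arrays lay above the highest, or both below the lowest, of the 25 other classical arrays. Both LG/J arrays lay above the range for 90 probe sets (0.200% of those tested) and below it for 116 (0.258%). Without KK/HIJ replicate 2, 95 lay above and 121 below. The rule sorts by score, so these counts describe LG/J and carry no test. At the edge of the rule, Per2 (1457350_at) scored 7.77 and 7.80 in LG/J against a lowest value of 7.80 elsewhere, a gap of 0.001 units. Scrn3 (1436573_at) was just inside, with 7.67 and 7.68 in LG/J and a lowest value of 7.68 elsewhere, a gap of 0.

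The same rule was applied to every classical strain in turn. Among the 10 strains with 2 arrays, LG/J had 206 probe sets outside the range of all others, against 78 (C3H/HeJ) to 759 (KK/HIJ) in the 9 other strains. Of those 9 strains, 6 had more probe sets outside the range than LG/J and 3 had fewer.

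**Figure D1:**
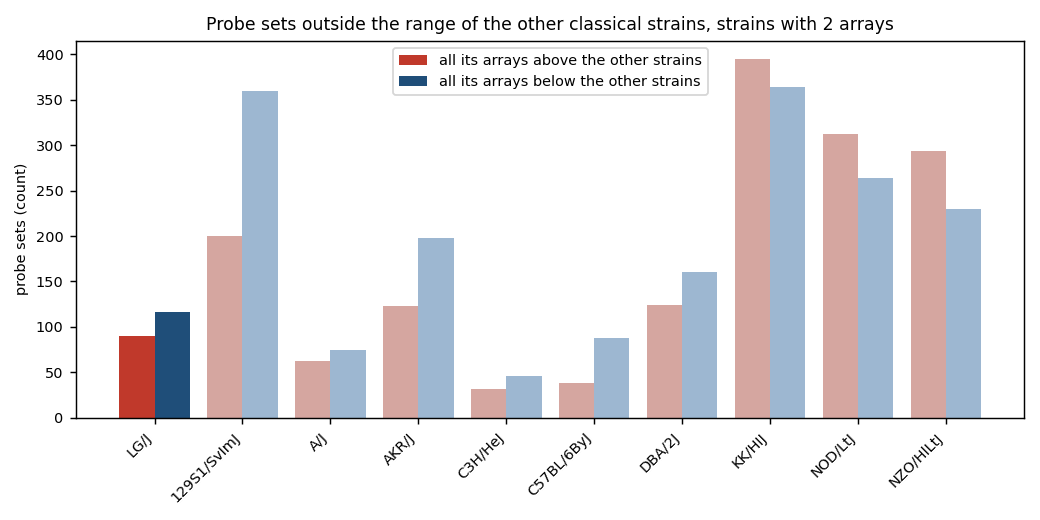
Number of probe sets (vertical axis) for which both arrays of a strain lay above (left bar) or below (right bar) every array of the other classical strains, for the 10 strains with 2 arrays. LG/J had 90 above and 116 below, between the extremes of C3H/HeJ with 32 and 46 and KK/HIJ with 395 and 364.

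LG/J was then compared with the mean of the 12 other strains by limma's moderated test. The model held terms for strain, sex and batch and took its spread from all strains of the series. At an adjusted p of 0.05, 375 probe sets were higher in LG/J (0.833%) and 317 were lower (0.704%), 692 in all (1.54%). Of the 206 probe sets outside the classical range, 141 also passed this test (0.313%), 65 of them higher and 76 lower in LG/J. The range and the test use the same arrays, so that passing one is no independent support for the other. The other 65 probe sets outside the range did not pass, and 551 probe sets passed with LG/J inside the range. Among the 141, the size of the difference had a median of 0.32 units and ran from 0.11 to 1.31, beside a median of 0.05 over all probe sets. The mean score was under 8 for 64 of the 141, while 18850 of the 45037 probe sets tested had a mean of 8 or more. All 141 had the same sign, and lay outside the other arrays on the same side, within batch 5 alone and within batch 6 alone, but the range within a batch follows from the range over all. Without the arrays whose file headers disagreed with their labels, KK/HIJ replicate 2 among them, 686 probe sets passed and 141 also lay outside the range. The 141 belonged to 106 genes with 1 symbol, while 18 of the probe sets had no symbol and 3 had several.

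Only 10 probe sets, 0.0222% of those tested, differed from each of the 12 strains taken singly, with an adjusted p under 0.05 for the largest of the 12 p-values. At an unadjusted p of 0.05 there were 64, and without the arrays of disagreeing headers the adjusted count was 9. The 10 stood for 8 named genes and 1 probe set with no symbol, 4 of them higher and 6 lower in LG/J. The farthest from all others was the one with no symbol, 1435788_at. It scored 7.90 in the LG/J female and 7.88 in the LG/J male, against 8.99, 9.25 and 9.45 as the lowest, median and highest of the other classical arrays. The LG/J arrays were thus 1.08 units below the nearest array, a DBA/2J sample. The difference from the mean was -1.31 ± 0.07 (SE; limma, adjusted p = 1.98e-30), and no array of any other strain in the series came within 0.96 units.

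The gene farthest above the others in LG/J was Wdr48, which encodes a WD-repeat cofactor of deubiquitinating enzymes. Its probe set 1452162_at scored 9.70 in the LG/J female and 9.43 in the LG/J male, against 8.08, 8.39 and 8.61 as the lowest, median and highest of the other classical arrays. The groups were 0.82 units apart at their closest. The difference was 1.18 ± 0.11 units (SE; limma, adjusted p = 4.23e-15), and the least distant strain, BALB/cByJ, was 1.02 units away. The largest p-value against any of the 12 strains gave an adjusted p of 0.00294 (limma). Among the wild-derived strains, which descend from wild mice of several subspecies, the LG/J level was reached: PWK/PhJ scored 9.85 and 9.60 and PWD/PhJ 9.18 and 9.67, against 8.43 in CAST/EiJ and 8.54 and 8.39 in WSB/EiJ. The file header of the first PWD/PhJ array disagreed with its labels. The 3 other Wdr48 probe sets gave differences of -0.08, 0.08 and 0.06 units, and none passed.

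Ddah1 had the largest gap among named genes that were lower in LG/J. It encodes a dimethylarginine hydrolase that degrades an endogenous inhibitor of nitric oxide synthase. Probe set 1429298_at scored 8.09 in the LG/J female and 8.21 in the LG/J male, against 8.97, 9.32 and 9.86 as the lowest, median and highest elsewhere. The arrays of the 2 groups did not overlap, and the difference was -1.18 ± 0.13 units (SE; limma, adjusted p = 2.67e-11). C57BL/6J was the least distant strain at -0.83 units, and the largest p-value against any of the 12 strains gave an adjusted p of 0.00808 (limma). Wild-derived arrays scored 8.63 to 9.41 and BXD and CXB arrays 8.57 to 9.76, so that LG/J was lowest of the whole series at this probe set. Of the 4 other Ddah1 probe sets, 2 were also lower in LG/J (-0.32 and -0.30 units) and 2 did not pass (-0.06 and 0.04).

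The promoters of these 2 genes, with the largest gap in each direction, show the sequence before their start. Both are the reference sequence of RefSeq (GRCm38.p6), which comes from C57BL/6J and is not that of LG/J. Each holds 250 bases before and 50 after the annotated start, written 5′ to 3′ on the gene's strand, with the GC box letters GGGCGG or their reverse complement in capitals. The Wdr48 window is chr9:119894645-119894944 on the plus strand and the Ddah1 window is chr3:145758442-145758741 on the plus strand.
Wdr48: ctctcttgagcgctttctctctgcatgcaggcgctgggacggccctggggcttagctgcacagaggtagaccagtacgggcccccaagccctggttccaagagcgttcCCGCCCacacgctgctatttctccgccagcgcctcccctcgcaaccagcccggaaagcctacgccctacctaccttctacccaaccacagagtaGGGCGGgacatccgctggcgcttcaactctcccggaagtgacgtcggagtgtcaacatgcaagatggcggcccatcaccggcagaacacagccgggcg
Ddah1: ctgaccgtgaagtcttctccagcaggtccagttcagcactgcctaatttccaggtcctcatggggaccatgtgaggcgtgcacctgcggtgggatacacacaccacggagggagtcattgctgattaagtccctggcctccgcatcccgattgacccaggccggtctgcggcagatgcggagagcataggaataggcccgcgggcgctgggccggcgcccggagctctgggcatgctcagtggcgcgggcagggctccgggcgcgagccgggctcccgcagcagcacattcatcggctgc
The Wdr48 window held 2 GC boxes and 22 CG dinucleotides, and the Ddah1 window held no GC box and 23 CG dinucleotides. The median was 7 CG dinucleotides over the promoters of 27025 genes, whether or not measured on the array. A GC box was present in 35.9% of these promoters, fewer than among measured genes. Counting both strands, GGGCGG was present in 54.0% of the promoters of genes measured on the array. Among genes outside the range and past the test, it was present in 24 of 38 promoters of those above (63.2%). Of those below, 28 of 46 held it (60.9%). The CCAAT letters were present in 11 of 38 and 17 of 46, against 38.2% of measured genes. The TATA box letters TATAAA were present in 2 of 38 and 4 of 46, against 9.87%. The E-box letters CACGTG were present in 1 of 38 and 4 of 46, against 9.02%. Of the 106 genes, 84 had a promoter in the table used here. These are matches of letters in a window and were not measured as binding sites.

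**Figure D2:**
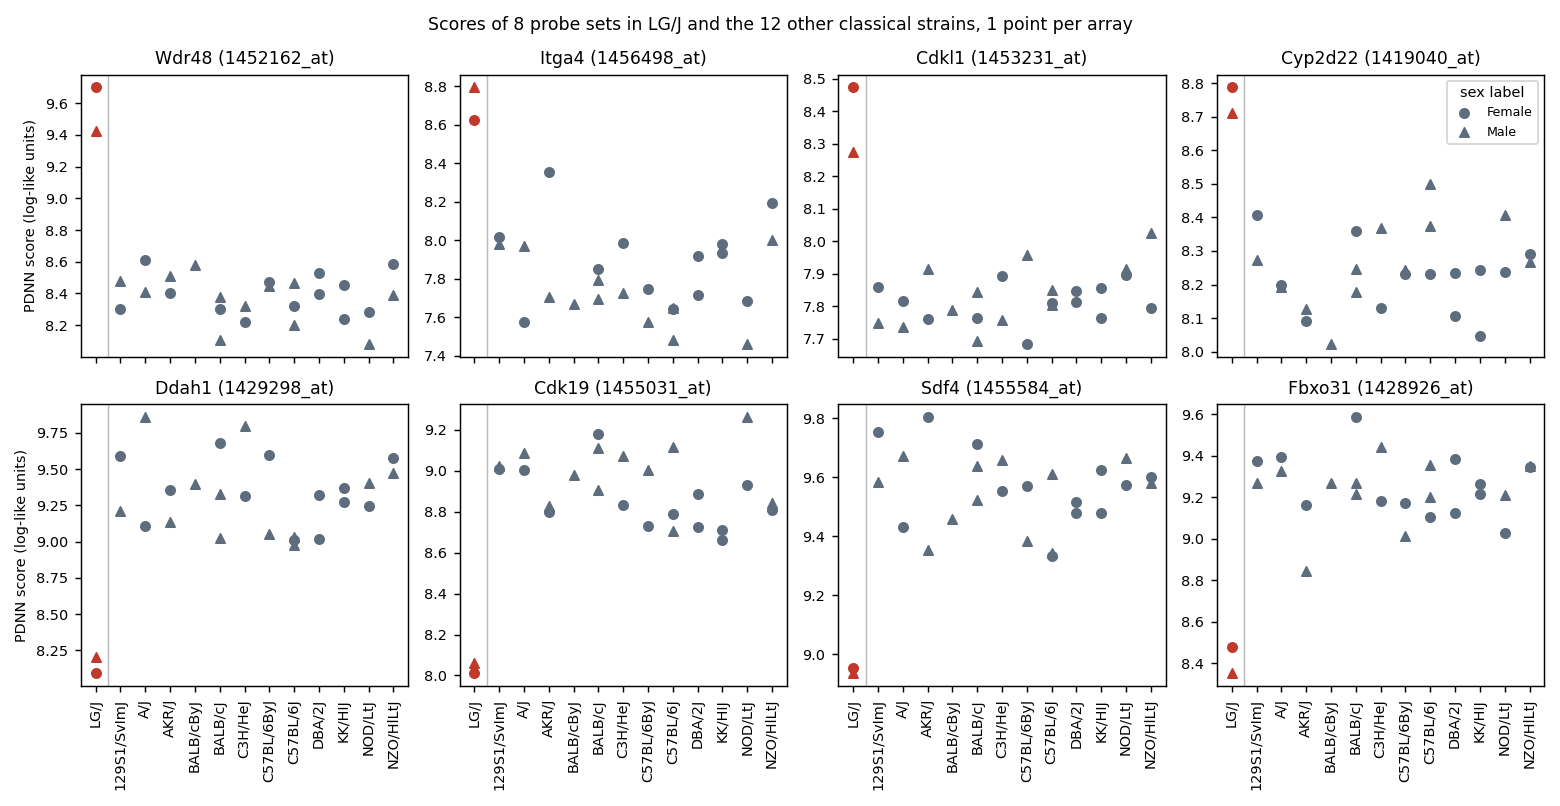
PDNN score (vertical axis) of the probe sets with a named gene that stood apart from every strain, 1 per gene, by strain, with LG/J leftmost in red. Circles are arrays labelled female and triangles arrays labelled male. In each panel both LG/J arrays lie beyond every other array, by 0.82 units for Wdr48 and by 0.21 units for Cyp2d22.

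Itga4, Cdkl1 and Cyp2d22 also stood above every strain. Itga4, the alpha-4 subunit of the integrins with which leukocytes adhere to vessel walls, scored 8.63 in the LG/J female and 8.79 in the LG/J male at 1456498_at, against 7.46, 7.74 and 8.35 as lowest, median and highest elsewhere. Cdkl1, a cyclin-dependent kinase-like protein linked to cilia, scored 8.47 in the LG/J female and 8.27 in the LG/J male at 1453231_at, against 7.68, 7.81 and 8.03. Cyp2d22, a cytochrome P450 of drug metabolism, scored 8.79 in the LG/J female and 8.71 in the LG/J male at 1419040_at, against 8.02, 8.24 and 8.50. In each the LG/J arrays lay apart from all others, and the differences were 0.86 ± 0.08 for Itga4, 0.55 ± 0.05 for Cdkl1 and 0.53 ± 0.06 for Cyp2d22 (SE; limma, adjusted p from 2.6e-14 to 1.07e-11). Cdkl1 and Cyp2d22 had 1 further probe set each, also higher in LG/J. The 4 further probe sets of Itga4 did not pass. Itga4 was higher in LG/J than in any other array of the series, while Cdkl1 was reached by PWK/PhJ (8.63 and 8.68) and PWD/PhJ (8.39 and 8.49). Cyp2d22 was reached by at least 1 BXD or CXB array, of which the highest scored 8.80.

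Cdk19, Fbxo31 and Sdf4 also stood below every strain. Cdk19, a kinase of the Mediator complex of transcription, did so at both of its probe sets. Probe set 1455031_at scored 8.01 in the LG/J female and 8.06 in the LG/J male, against 8.66, 8.91 and 9.26 elsewhere, and 1434997_at scored 8.04 and 8.09 in the same arrays, against 8.37, 8.54 and 8.71. The differences were -0.85 ± 0.09 and -0.47 ± 0.05 units (SE; limma, adjusted p = 3.82e-13 and 1.2e-10). Fbxo31, a substrate receptor of an SCF ubiquitin ligase, scored 8.48 in the LG/J female and 8.35 in the LG/J male at 1428926_at, against 8.84, 9.27 and 9.59 elsewhere. Its difference was -0.81 ± 0.07 (SE; limma, adjusted p = 2.2e-17), and its other probe set gave 0.16 and did not pass. At 1428926_at the arrays of CAST/EiJ, PWD/PhJ and PWK/PhJ scored 8.51 to 8.68, and those of WSB/EiJ 9.36 and 9.13. The gap between LG/J and the nearest array of the whole series was thus only 0.031 units. Sdf4, a calcium-binding protein of the Golgi, scored 8.96 in the LG/J female and 8.94 in the LG/J male at 1455584_at, against 9.33, 9.57 and 9.80, a difference of -0.62 ± 0.06. Its 2 further probe sets did not pass. Among the wild-derived strains, PWD/PhJ (8.92 and 8.96) and PWK/PhJ (8.95 and 8.91) were at the LG/J level for Sdf4, while CAST/EiJ scored 9.16 and WSB/EiJ 9.37 and 9.34.

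The remaining genes with the largest gaps above the range were Ccser2, Pwwp3b, Me1, Ank3, Aldoc, Rsph1, Napb, Dgke, Ldah, Zfp703 and Sirt5, with differences of 0.26 (Zfp703) to 0.70 (Ccser2) units. Me1, the cytosolic malic enzyme that supplies NADPH, scored 9.36 in the LG/J female and 9.39 in the LG/J male, against 8.60, 8.86 and 9.17 elsewhere, and both of its probe sets were higher. Aldoc, the aldolase of brain glycolysis found in astrocytes, scored 9.38 and 9.29 in the LG/J arrays, against 8.48, 8.81 and 9.14. Its other probe set, 1451461_a_at, did not pass, with 11.19 and 11.07 in the LG/J arrays, against 10.81 to 11.29. Sirt5, a deacylase of mitochondria, differed by 0.46 ± 0.08, and its 2 further probe sets gave 0.21 and 0.12 and did not pass. Ldah, a hydrolase of lipid droplets, and Dgke, a diacylglycerol kinase, differed by 0.54 ± 0.11 and 0.48 ± 0.09. None of the 5 further probe sets of Ldah passed. Among them, 1446793_at lay below the range, with 7.32 and 7.34 in the LG/J arrays against a lowest value of 7.37 elsewhere. With the RMA scores Dgke gave 0.0048, and -0.038 without the mismatched columns, and passed in neither. Ank3, the scaffold of the axon initial segment, was the only named gene with probe sets called both ways: 1425202_a_at and 1451628_a_at were higher by 0.42 and 0.43 units and 1452124_at was lower by -0.19.

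The remaining genes with the largest gaps below the range were Rpl14, Rrm2b, Isca1, Nectin3, Irak2, Trim37, Slc25a38, Sox12, Upp2, Ywhaz and Dcbld1, with differences of -0.29 (Sox12) to -0.72 (Rpl14) units. Rpl14, a protein of the large ribosomal subunit, scored 7.25 in the LG/J female and 7.10 in the LG/J male, against 7.61, 7.86 and 8.63 elsewhere. These LG/J scores were under the median of 7.86 over all probe sets and arrays. All 7 wild-derived arrays, with 7.18 to 7.28, lay at the LG/J level, and BXD and CXB arrays scored 7.54 to 8.71. Rrm2b, the p53-inducible subunit of ribonucleotide reductase, scored 7.56 in the LG/J female and 7.68 in the LG/J male at 1437476_at, against 8.02, 8.22 and 8.45, and 1 of its 3 other probe sets was lower too. Isca1 assembles iron-sulfur clusters and Slc25a38 carries glycine into mitochondria, and they differed by -0.55 ± 0.08 and -0.39 ± 0.04. Irak2, a kinase of Toll-like and interleukin-1 receptor signalling, scored 7.67 in the LG/J female and 7.74 in the LG/J male, against 7.96, 8.08 and 8.21. Nectin3, an adhesion molecule of hippocampal synapses, was lower at 1 of 6 probe sets, with the other 5 from -0.13 to 0.18 and not passing.

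The probe sets of a gene often disagreed. Of the 30 named genes, 25 had further probe sets on the array, 66 in all. Of these, 15 were called in the same direction as the named probe set, 1 in the other direction and 50 were not called. At least 1 further probe set was called the same way for 12 genes, and none was for 13. Scores come from binding to probes, and whether LG/J differs in sequence under them was not tested. A difference at 1 probe set can therefore not be read as the RNA level of the whole gene. Ywhaz, which encodes a 14-3-3 protein, spanned the widest range, from -1.62 to 0.67 units over its 7 probe sets, so that a gene-level direction in LG/J cannot be given for it.

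**Figure D3:**
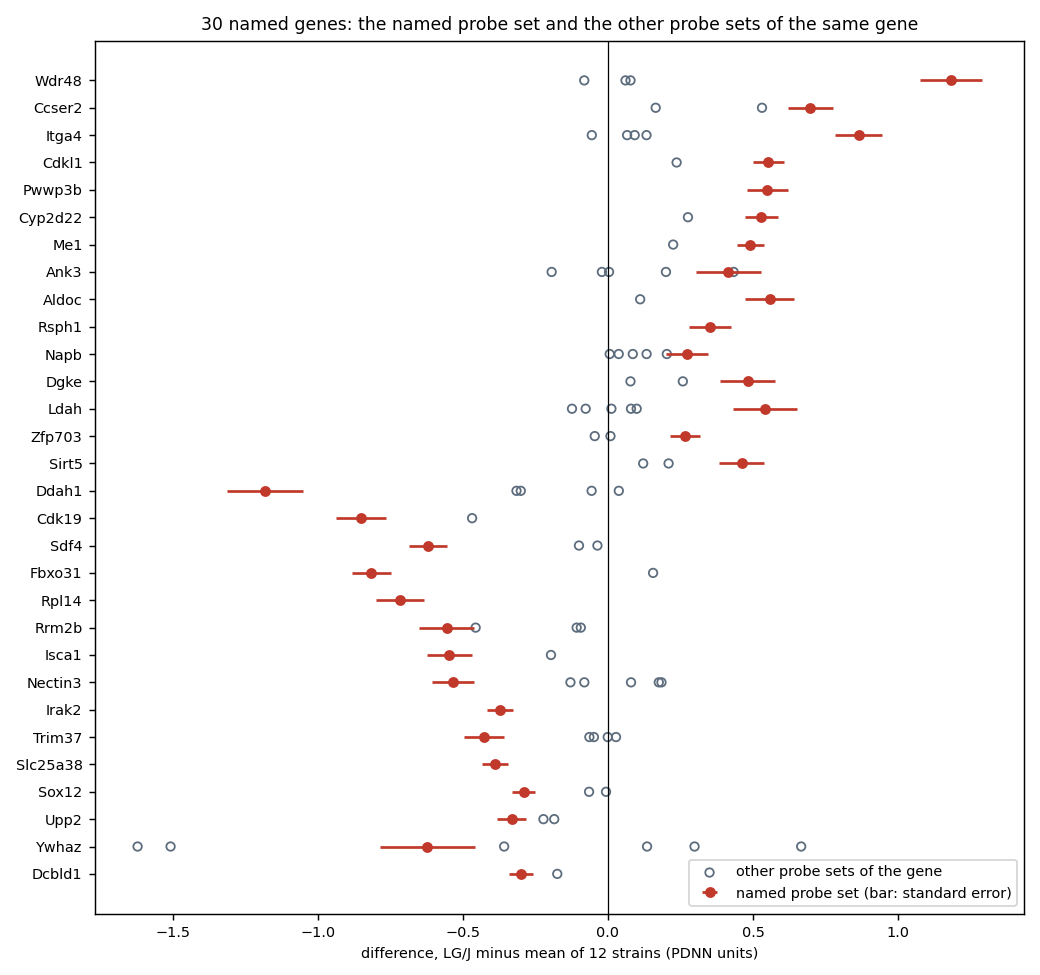
Difference between LG/J and the mean of the 12 other strains in PDNN units (horizontal axis) for the 30 named genes, with the named probe set in red (bar: standard error) and the gene's other probe sets as open circles. Both probe sets of Cdk19 lie below 0, while the open circles of Wdr48 lie between -0.08 and 0.08.

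Set beside the rest of the series, 83 of the 141 probe sets also lay beyond all 7 wild-derived arrays, and 58 were reached by at least 1 of them. By their named probe sets, 17 of the 30 named genes lay beyond all wild-derived arrays. Against the 161 arrays of the BXD and CXB strains, which carry alleles of C57BL/6, DBA/2J and BALB/c parents, 75 lay beyond. Beyond all 199 other arrays lay 44, among them 15 of the 30 named genes. Over 18850 probe sets with a mean score of 8 or more, after removal of sex and batch terms, the deviations of the 2 LG/J arrays from the classical mean correlated at 0.60. The LG/J female correlated with other classical arrays at -0.38 to 0.34 and the LG/J male at -0.56 to 0.52. All points of a pair come from the same 2 arrays, so the values are a description only.

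Some of the genes were neighbours. In the order of measured genes along the chromosomes (RefSeq, GRCm38.p6, used only for names and order), 21 of the 106 placed genes lay within 5 genes of another, in 8 runs. These runs and the genes named in them were chosen after their values were seen. On chromosome 4, 7 consecutive measured genes included Sgip1, Insl5, Wdr78, Mier1 and Slc35d1, and each of these 5 had 1 probe set below the range, with differences of -0.16 (Insl5) to -0.40 (Slc35d1). Slc35d1, a nucleotide-sugar transporter, scored 7.45 in the LG/J female and 7.48 in the LG/J male at 1445629_at, against 7.53, 7.83 and 8.14 elsewhere. The further probe sets of Sgip1, Wdr78, Mier1 and Slc35d1 did not pass, with differences of -0.06 to 0.26 units.

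On chromosome 2, Tubgcp4, Trp53bp1 and Ppip5k1 were above the range at 4 probe sets in a run of 4 measured genes, with Map1a between them not called. Tubgcp4 belongs to the gamma-tubulin complex, Trp53bp1 is a scaffold of DNA double-strand break repair, and Ppip5k1 makes inositol pyrophosphates. Trp53bp1 scored 8.00 in the LG/J female and 7.98 in the LG/J male at 1442316_x_at, against 7.25, 7.34 and 7.89 elsewhere, and 3 of its 6 probe sets were higher. Over the longer stretch of 81 measured genes from Ivd to Gatm, 14 of 153 probe sets were higher and 2 lower, 10.5% called beside 1.54% of all. Ivd, an enzyme of leucine breakdown, and Gatm, the first enzyme of creatine synthesis, were higher by 0.44 ± 0.08 and 0.45 ± 0.10 units. The 2 lower probe sets belonged to Tmem87a (-0.89 ± 0.08), with LG/J inside the range, and Pla2g4e (-0.40 ± 0.05), with LG/J below it. That of Tmem87a was the largest difference among the called probe sets of the stretch, in either direction. The stretch ends were set by the called genes, so the share is a description.

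The promoters of the 3 neighbours that were higher together are shown from the same RefSeq table and with the same marking. The windows are chr2:121170918-121171217 (plus strand) for Tubgcp4, chr2:121271358-121271657 (minus strand) for Trp53bp1 and chr2:121350964-121351263 (minus strand) for Ppip5k1.
Tubgcp4: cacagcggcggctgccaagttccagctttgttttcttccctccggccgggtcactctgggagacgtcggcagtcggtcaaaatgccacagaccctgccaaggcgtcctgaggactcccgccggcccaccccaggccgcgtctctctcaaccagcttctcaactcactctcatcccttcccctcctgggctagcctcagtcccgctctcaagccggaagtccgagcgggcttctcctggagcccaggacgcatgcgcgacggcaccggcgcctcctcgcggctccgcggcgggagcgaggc
Trp53bp1: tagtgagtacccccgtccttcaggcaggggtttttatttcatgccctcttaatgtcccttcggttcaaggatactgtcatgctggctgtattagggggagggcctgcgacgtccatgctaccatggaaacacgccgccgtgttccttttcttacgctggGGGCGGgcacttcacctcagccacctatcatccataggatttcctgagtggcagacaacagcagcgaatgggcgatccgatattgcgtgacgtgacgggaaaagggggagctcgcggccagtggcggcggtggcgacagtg
Ppip5k1: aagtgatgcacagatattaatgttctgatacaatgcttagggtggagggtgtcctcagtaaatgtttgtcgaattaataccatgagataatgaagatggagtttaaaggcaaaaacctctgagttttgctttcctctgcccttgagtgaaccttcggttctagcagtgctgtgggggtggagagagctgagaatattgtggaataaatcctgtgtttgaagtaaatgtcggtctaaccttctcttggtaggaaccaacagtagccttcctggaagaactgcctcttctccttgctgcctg
Only the Trp53bp1 window held a GC box among the 3. CG dinucleotides numbered 28 in Tubgcp4, 20 in Trp53bp1 and 3 in Ppip5k1, and none of the 3 windows held the CCAAT letters, a TATA box or an E-box as spelled above, on either strand.

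On chromosome 9, 4 genes outside the range lay among 21 consecutive measured genes: Myd88, Wdr48, Slc25a38 and Rpl14. Wdr48 was higher in LG/J and the others lower. Myd88, the adaptor that joins Toll-like receptors to Irak kinases, scored 7.77 in the LG/J female and 7.83 in the LG/J male, against 7.88, 7.98 and 8.14 elsewhere (difference -0.19 ± 0.04). The same stretch holds Mobp, a myelin gene, of which 2 probe sets were lower (-0.47 ± 0.12 and -0.58 ± 0.15) with LG/J inside the classical range. In this stretch 6 of 36 probe sets were called, or 16.7%, beside 1.54% of all. Its ends too were set by called genes, so the share is a description.

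**Figure D4:**
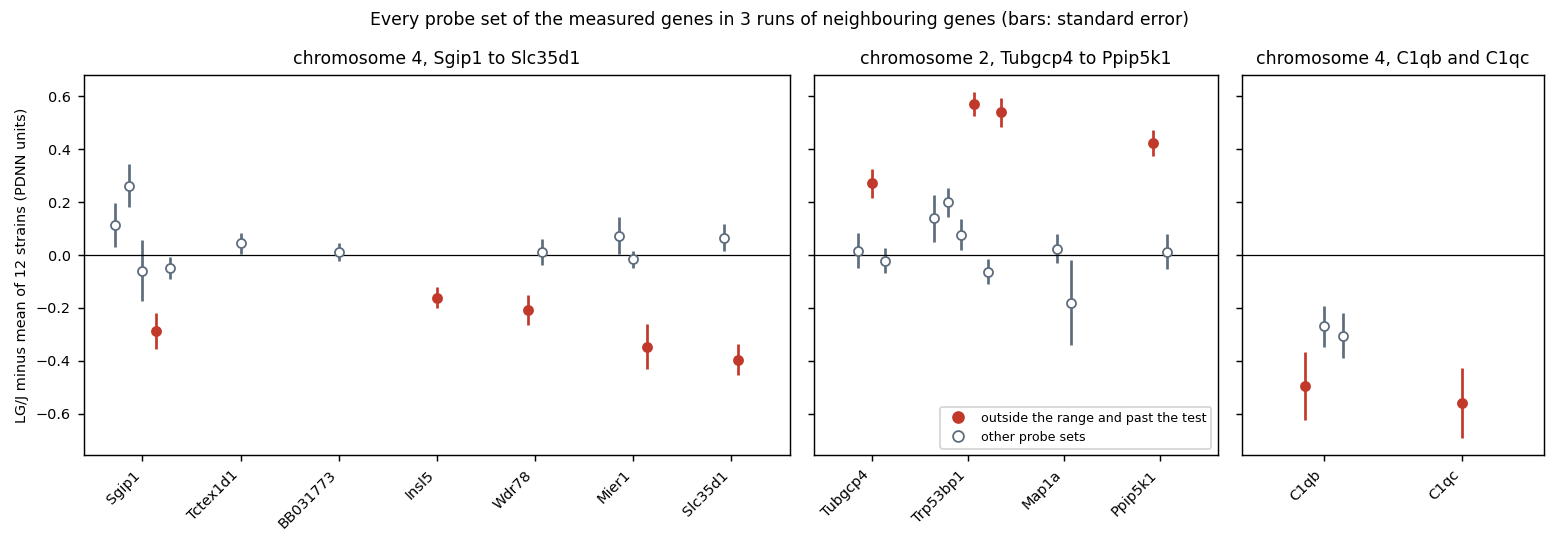
Difference between LG/J and the mean of the 12 other strains in PDNN units (vertical axis, bars: standard error) for every probe set of the genes in 3 runs, in chromosomal order. Filled red points lie outside the classical range and pass the test. In the chromosome 4 run from Sgip1 to Slc35d1 the 5 red points are below 0, the lowest at -0.40. In the chromosome 2 run from Tubgcp4 to Ppip5k1 the 4 red points are above 0, the highest at 0.57. The run of C1qb and C1qc, also on chromosome 4, has 2 red points below 0, the lower at -0.56.

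Gene lists were read through 1 probe set per gene, that with the highest mean. Over all 18193 genes, 178 were higher and 127 lower in LG/J, 1.68% in all, and the median difference was -0.0019. Of 23 lists, 17 had no gene past the limma test. These 17 held 180 measured genes, of which 23 had an unadjusted p under 0.05, beside 13.4% of all genes. In bulk tissue, fewer cells of a type and less RNA per cell cannot be told apart.

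Microglial genes lay below the mean of the other strains. Of 11 measured, 3 fell (Csf1r, C1qb and C1qc), or 27.3% beside 1.68% of all genes called, and none was higher. All 11 differences were below 0, while 49.1% of all genes had a difference above 0. The median of the 11 was -0.23, beside -0.0019 for all genes. An unadjusted p under 0.05 was reached by 8 of the 11, beside 13.4% of all genes. The choice of these markers was made with results of these data known. C1qc, a chain of the complement initiator C1q, scored 7.66 in the LG/J female and 7.51 in the LG/J male, against 7.74, 8.19 and 8.59 as lowest, median and highest elsewhere, a difference of -0.56 ± 0.13 (limma, adjusted p = 0.00715). C1qb was lower at all 3 of its probe sets, from -0.27 to -0.50 units, and C1qa gave -0.37 ± 0.17 (adjusted p = 0.389). C1qb and C1qc are consecutive measured genes on chromosome 4 and make up 1 of the 8 runs of neighbours. They are thus not separate places in the genome, and whether their difference is local to that position was not tested. Csf1r, the receptor on which microglia depend, scored 9.43 in the LG/J female and 9.47 in the LG/J male, against 9.41, 9.68 and 10.04 (difference -0.23 ± 0.06), and its 2 further probe sets did not pass. The list mean was 8.14 in the LG/J female and 8.08 in the LG/J male, against 8.09, 8.35 and 8.57, so that only the LG/J male lay outside the other arrays. Cx3cr1, Tmem119 and P2ry12, found mainly in microglia, gave -0.26 ± 0.09, -0.20 ± 0.08 and -0.31 ± 0.19 and did not pass.

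**Figure D5:**
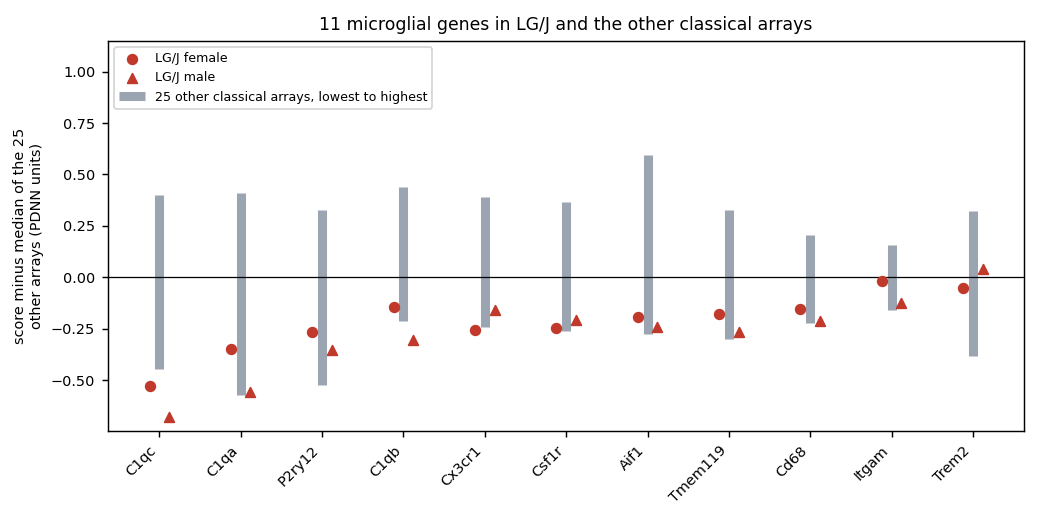
Score minus the median of the 25 other classical arrays (vertical axis, PDNN units) for 11 microglial genes, with the LG/J female as a circle, the LG/J male as a triangle and the lowest to highest of the other arrays as grey bars. Both LG/J arrays lie below the bar for C1qc, and 1 of the 2 does so for C1qb and for Cx3cr1.

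Choroid plexus genes, which mark tissue that can be carried along in hippocampal dissection, ran the other way. All 10 differences were above 0, beside 49.1% of all genes, with a median of 0.34 units. None passed, and 2 of the 10 had an unadjusted p under 0.05, beside 13.4% of all genes. The list mean was 8.68 in the LG/J female and 9.00 in the LG/J male, against 7.75, 8.65 and 8.99 in the other arrays. Transthyretin (Ttr) scored 11.92 in the LG/J female and 12.07 in the LG/J male. The lowest, median and highest of the other arrays were 8.29, 11.88 and 12.15, so that the LG/J female lay near their median. The part of choroid plexus in the other results was not tested.

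Receptor, growth and repair lists held few calls. For all genes, 1.68% were called and 13.4% had an unadjusted p under 0.05. Of 11 ionotropic glutamate receptor genes, 1 fell: Gria1, a subunit of AMPA receptors, scored 10.16 in the LG/J female and 10.00 in the LG/J male, against 10.23, 10.58 and 10.75, a difference of -0.43 ± 0.09 (limma, adjusted p = 0.000521). Its other probe set gave -0.57 and did not pass. Of 19 genes of the insulin-like growth factor axis, 1 rose: Igfbp3, a binding protein of these factors, at 8.38 in the LG/J female and 8.42 in the LG/J male, against 7.97, 8.21 and 8.41 (difference 0.24 ± 0.06, adjusted p = 0.0316). Its other probe set gave 0.02 and did not pass. Igf1 gave 0.15 ± 0.07 and Ghr, the growth hormone receptor, 0.05 ± 0.07, and neither passed. None of 17 tissue repair genes passed, and 3 had an unadjusted p under 0.05. Cdkn1a, the cell cycle inhibitor whose loss gives mice an MRL-like healing of ear wounds, gave 0.07 ± 0.05.

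Among genes with known variants between strains, 1 of 15 passed (6.67%, beside 1.68% of all genes). An unadjusted p under 0.05 was reached by 8 of the 15, beside 13.4% of all genes. Cap1, an actin-binding protein, scored 9.72 in the LG/J female and 9.79 in the LG/J male, against 7.80, 9.54 and 9.93 (difference 0.69 ± 0.15), with LG/J inside the range. Its other probe set was higher too. Of 11 myelin genes, 1 fell (9.09%, beside 1.68% of all genes): Mobp, at 2 of its 5 probe sets. Of 10 ribosomal protein genes, 1 fell (10%, beside 1.68% of all genes). This was Rps6, at 1 probe set (-0.23 ± 0.06), while its other gave 0.0050 and did not pass. No gene passed in the lists of pyramidal neurons, dentate granule neurons, interneurons, astrocytes or GABA-A receptors.

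The number of probe sets called differed between fits, and the cause was not tested. With the 13 classical strains alone in the fit, 174 passed against the mean and 54 of them lay outside the range. With 1 fitted level per strain, so that strains were the replicates, 9 passed against the mean. Of the 30 named genes, 7 passed under every one of the alternatives tried: Wdr48, Cdkl1, Ddah1, Cdk19, Sdf4, Fbxo31 and Rrm2b. The unnamed probe set 1435788_at alone stayed apart from every strain in all 40 alternatives of that test. Cyp2d22 did so in 26 of 40 and 1434997_at of Cdk19 in 22 of 40. With the MAS5 scores 7 probe sets were apart from every strain, all of them lower in LG/J. Wdr48, Itga4, Cdkl1 and Cyp2d22 were thus not apart from every strain with those scores. With the animal source as a further term, which LG/J shared with 6 of the 12 strains, 2 probe sets were apart from every strain. Without the LG/J female array, 257 probe sets passed against the mean, and without the LG/J male array 174. Among the 30 named genes, 26 passed in the same direction with the MAS5 scores and 24 with the RMA scores. Sox12 and Zfp703 had the opposite sign in the RMA table, as did Dgke without its mismatched columns.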

How the data were processed

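Values for each probe set on each array were deposited by the authors as PDNN, RMA and MAS5 scores. PDNN is a probe-level model that estimates RNA level from sequence-dependent binding. Per the series' design text the authors set the average of every PDNN array to 8 with an SD of 2. In the deposited scores the average lay between 8.06 and 8.10 and the SD between 0.633 and 0.801. They were used as deposited. No versions of the software behind them are known here.

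Of 45101 probe sets, 64 controls were left out. The platform annotation gave 1 symbol to 34945 probe sets, several to 932 and none to 9160, and 34741 matched a RefSeq gene record (GRCm38.p6). The annotation was used for names and gene order only, and coordinates are printed only for the RefSeq promoter windows.

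limma 3.58.1 in R 4.3.3 with data.table (version 1.17.8) fitted terms for strain, sex and batch to 199 columns, leaving 92 residual degrees of freedom. Of the 201 arrays, 1 technical duplicate was averaged with its mate and 1 labelled with both sexes was left out. All strains share 1 spread per probe set. Tests were two-sided with Benjamini-Hochberg adjustment over all 45037 probe sets. For the test against every strain, the largest of the 12 p-values was taken where all 12 differences shared a sign. The model was tested on simulated data. Values were tabulated with python 3.11.15, numpy 2.4.6 and pandas 2.3.3.

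The file headers of 7 arrays of PDNN scores disagreed with the labels in strain, sex or batch, KK/HIJ replicate 2 being the only classical one, and labels were used throughout. The RMA table held 197 arrays, and 4 of its columns matched another array than the one they were headed for.

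Named genes were the 15 with the largest gaps on each side among probe sets outside the range and past the test, with 1 symbol that is no clone or predicted name, and list members past the test. Members and lists were chosen with earlier results of these data known. The alternatives were the MAS5 and RMA tables, a mean score filter of 8, quantile normalization, removal of arrays by labelled RMA outlier share (0.1 or more) or header, no batch term, animal source or ACTB ratio as further terms, other sets of strains, averaged substrains, 1 level per strain, values with sex and batch removed, single batches, wider ranges and each compared array left out. RMA scores without mismatched columns, and the alternatives of the combined rule, were added after seeing the data.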

Additional observations from a re-analysis of the deposited data

How the results depend on the processing

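Of the main counts, 692 probe sets passed against the mean of the 12 strains, 206 lay outside the classical range, 141 did both and 10 were apart from every strain. Passing against the mean fell to 401 in the MAS5 table (35.4% of them higher, beside 54.2%), 174 with the 13 classical strains alone, 242 with inbred strains and F1 hybrids alone, and 9 with 1 level per strain, and came to 1715 without the arrays of high labelled RMA outlier share, 21 in the series and 8 of the classical ones (67.1% higher). Outside the range lay 354 in the RMA table without mismatched columns (54.0% above, beside 43.7%), 100 with a mean score of 8 or more, 1447 without the arrays of high outlier share (69.9% above), 121 with wild-derived arrays added, 53 with BXD and CXB arrays added as well, 4915 by fitted strain levels, 2645 in batch 5 alone and 7255 in batch 6 alone. The last 3 and the removal of arrays set LG/J against fewer values. Both criteria held for 79 with a mean of 8 or more, 646 without high outlier shares (73.5% above, beside 46.1%, with 28.4% above for MAS5 and 57.4% for RMA without mismatched columns), 54 with the 13 classical strains, 77 with inbred strains and F1 hybrids, and 8 with 1 level per strain. Apart from every strain were 2 with the animal source term, 1 with the 13 classical strains and 1 with inbred strains and F1 hybrids. Leaving out an LG/J array gave 174 (without the male) and 257 (without the female) against the mean, 1122 and 1631 outside the range, 84 and 145 for both, and 7 and 9 apart from every strain. Leaving out each other classical array gave 660 to 783, 206 to 246, 139 to 156, and 8 to 12. The probe sets apart from every strain changed with the LG/J array left out, which their counts do not show. Without the LG/J female, those of Wdr48, Cdkl1, Cyp2d22, Ddah1 and Sdf4 and both of Cdk19 were no longer apart. Without the LG/J male, those of Cyp2d22 and Itga4 and 1434997_at of Cdk19 were no longer apart. Among named genes, Sox12 (0.040, and 0.032 without mismatched columns) and Zfp703 (-0.13 and -0.13) reversed in the RMA table, as did Dgke (-0.038) without mismatched columns. Over 38 named values, 1399 of 1547 alternatives kept direction and call, 143 kept direction only and 5 reversed. The causes were not tested. No paired analysis was possible because the labels give no replicate numbers that link arrays of different strains. The number of arrays, 2 for LG/J, limits the precision.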
